A study of Homo sapiens with 16 samples.

Results

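The 38 genes described here act in homologous recombination and in related forms of DNA repair, and they were chosen by gene symbol: BRCA1 and its partners, RAD51C, RAD51D, XRCC2, XRCC3 and the motor proteins that act with them, the Fanconi anemia genes, the nucleases and helicases of DNA end processing, the damage kinases, a pair of mismatch repair genes, POLQ and RADX. All 38 were found among the 60719 gene identifiers counted. RADX was listed for its rise in untreated TXNIP-deleted cells, so its values in that comparison are given as a description with no test.

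Homologous recombination repairs a broken chromosome by copying an intact sister. The ends are first trimmed to single strands, and BRCA1, PALB2 and BRCA2 then prepare them for strand invasion, in which the matching sequence is found and copied. Fanconi anemia proteins hand crosslinked DNA to this pathway, and ATM, ATR and their target kinases halt the cell cycle meanwhile. Many of these genes are transcribed mostly in cells that are about to copy, or are copying, their DNA, and fast-growing breast cancer cells depend on them at stalled replication forks.

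RNA was sequenced from MDA-MB-231, a cell line from a human breast cancer of the triple-negative kind, which was wild-type for TXNIP (parental 231) or in which TXNIP had been deleted with CRISPR/Cas9 (231:TKO). The untreated cells had 2 replicates each, and cells of both kinds given a non-targeting siRNA (siNT) or an siRNA against Myc (siMyc) for 48 hours had 3 replicates each, 16 libraries in all. TXNIP encodes an arrestin-like protein that restrains glucose uptake, and Myc is a transcription factor that drives growth, so the comparisons ask how the repair genes respond to the loss of either. The methods of the study describe edited cells isolated as single cells, so 231:TKO can carry features of a founder cell beside the deletion.

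Total counts per library lay between 18953668 and 59799444. MYC had 122 to 144 CPM (counts relative to the library total, scaled by edgeR's TMM method) in the 231:TKO+siNT libraries and 58.2 to 58.7 with siMyc. In parental 231 it went from 123 to 130 CPM with siNT to between 63.3 and 66.9 with siMyc. TXNIP lay at 290 and 291 CPM in untreated parental 231 and at 12.6 and 46.6 in 231:TKO, and in the siRNA libraries at 297 to 459 and 6.56 to 10.2. VIM and CD44, which mark mesenchymal cells, were at 1814 to 3088 and 566 to 1386 CPM, and of the epithelial genes KRT8 was at 237 to 1875 CPM, KRT18 at 196 to 697, KRT19 at 150 to 1104 and EPCAM at 12.5 to 32.1. The hormone receptor genes ESR1 and PGR were at most at 0.313 CPM, whereas ERBB2 was at 74.3 to 107. Read counting differed, with single reads in the untreated libraries and read pairs in the siRNA libraries, so levels are not compared between them. The siRNA libraries of parental 231 were counted with a later gene annotation than those of 231:TKO, and they may also differ in sequencing run. The parental 231+siNT replicate 1 and parental 231+siMyc replicate 3 libraries stood apart from their groups in the same way, with a correlation of 0.926 between their deviations from the group means over 11549 genes.

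**Figure D1:**
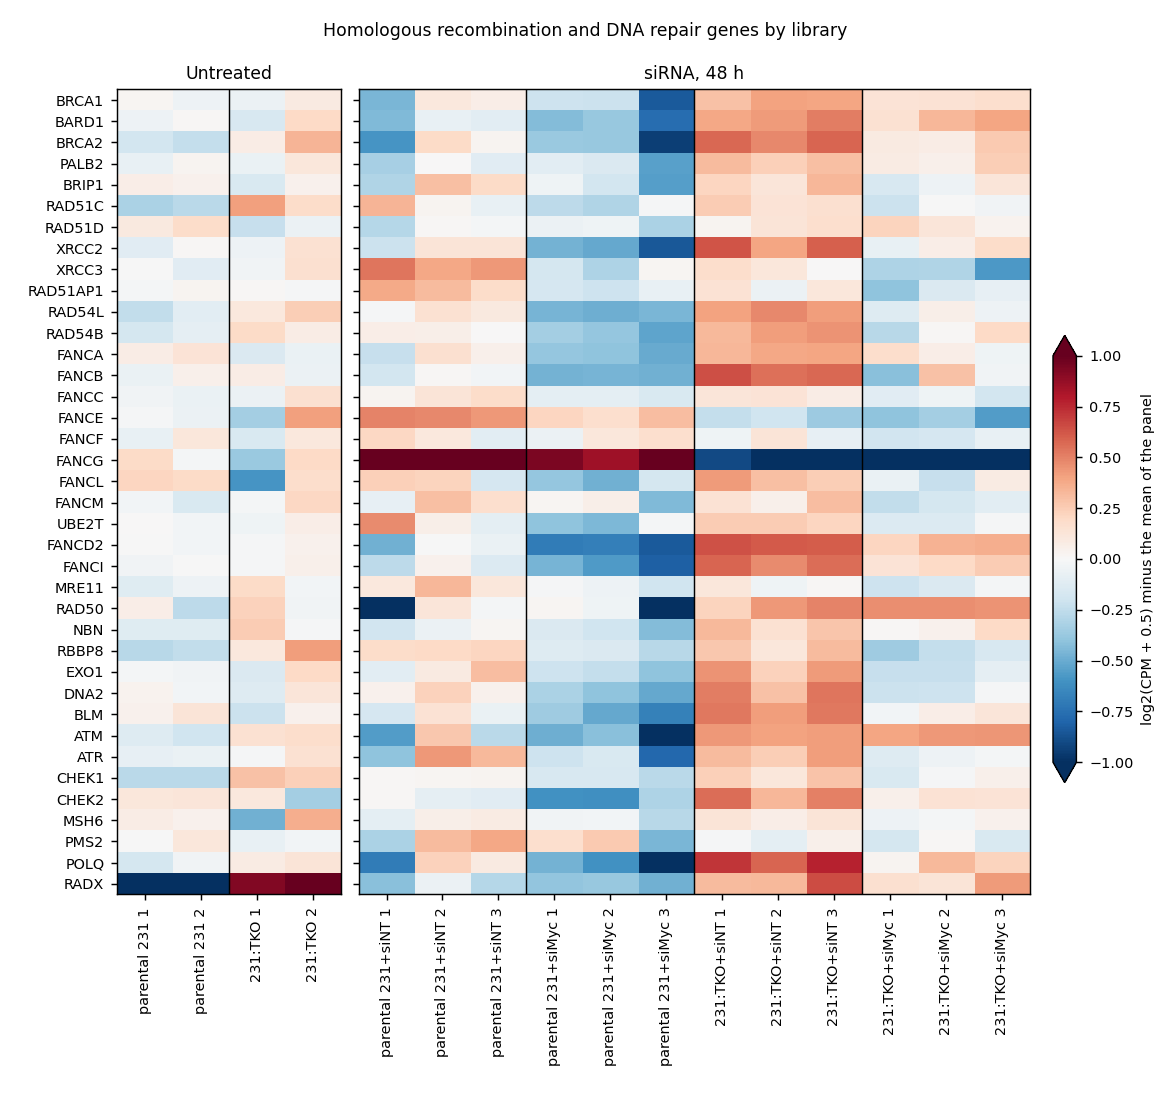
Level of each of the 38 genes (rows) in each library (columns), as log2(CPM + 0.5) minus the gene's mean over the libraries of the panel, with colors that end at 1 and -1. With siMyc 37 of the 38 genes had a negative log2 fold change in 231:TKO, and RADX stood out in the untreated libraries and FANCG in the siRNA libraries.

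In 231:TKO cells, lowering Myc lowered most of the repair genes. Of the 38 genes, 29 (76.3%) were lower with siMyc and 0 were higher at an adjusted p-value of at most 0.05 (edgeR's quasi-likelihood test, Benjamini-Hochberg adjustment over 22450 genes, n = 3 per group). Over all genes tested, 13.9% were lower and 13.3% were higher. The median log2 fold change of the 38 genes was -0.33, with a range from -0.68 to 0.04, whereas that of all genes was 0.01. For 26 of the 38 genes every siMyc library lay below every siNT library, which held for 17.3% of all genes tested. Bulk RNA cannot tell fewer cells that express a gene from less RNA per cell.

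The complexes around BRCA1 and BRCA2 moved moderately. BRCA2, which prepares the trimmed ends for strand invasion, measured 34.3, 32.2 and 34.4 CPM with siNT and 24.4, 24.1 and 27.5 CPM with siMyc. Its siMyc libraries all lay below its siNT libraries, with a log2 fold change of -0.44 (SE 0.07, edgeR adjusted p = 3.37e-05). BRCA1, the ubiquitin ligase that acts before it, measured 37.4, 40.5 and 40.2 CPM with siNT and 33.4, 33.8 and 34.3 CPM with siMyc. That was a log2 fold change of -0.25 (SE 0.06, edgeR adjusted p = 0.00321), again without overlap. BRIP1, a helicase bound to BRCA1, also fell (log2 fold change -0.28), with groups that overlapped. BARD1, the partner of BRCA1 in the ligase, and PALB2, the bridge between BRCA1 and BRCA2, did not pass the threshold, at -0.18 (edgeR adjusted p = 0.0861) and -0.19 (adjusted p = 0.0514), and their groups overlapped.

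The proteins that assist strand invasion showed larger changes. RAD54L, a motor that remodels DNA during invasion, measured 26.5, 28.0 and 26.8 CPM with siNT and 18.2, 20.8 and 19.2 CPM with siMyc. This change of -0.51 on the log2 scale (SE 0.07, edgeR adjusted p = 7.3e-06) corresponds to 29.7% less RNA. RAD54B, a related motor, and RAD51AP1, a cofactor of strand invasion, fell by 0.46 and 0.31. RAD54B shares 66.0% of its exon bases with FSBP on the same strand, so the source of its reads is uncertain. In the family that also holds XRCC2, RAD51C and RAD51D and supports recombination, XRCC3 measured 36.9, 35.3 and 32.7 CPM with siNT and 26.1, 26.3 and 21.7 CPM with siMyc, a log2 fold change of -0.53 (SE 0.08, edgeR adjusted p = 1.78e-05). XRCC2 fell by 0.52 and RAD51C by 0.30. RAD51D belongs to the same family, but its levels of 18.0 to 19.9 CPM with siNT and 18.1 to 20.7 CPM with siMyc overlapped, with a log2 fold change of -0.01 (SE 0.07, edgeR adjusted p = 0.958).

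Of the Fanconi anemia core genes and UBE2T, 7 of 9 were lower. FANCB, a core subunit, had the largest fold change of all 38 genes and a low level. It measured 10.4, 9.70 and 9.83 CPM with siNT and 4.70, 8.02 and 6.27 CPM with siMyc, and its log2 fold change was -0.68 (SE 0.13, edgeR adjusted p = 0.000269). Its siMyc libraries were spread further apart than its siNT libraries, and none overlapped with them. UBE2T, the ubiquitin-conjugating enzyme of the pathway, had the highest level per kilobase of exon of the 38 genes in these libraries, with a median of 39.5 CPM per kb. It went from 72.4, 72.0 and 70.3 CPM to 54.9, 55.1 and 60.1 CPM, a log2 fold change of -0.36 (SE 0.06, edgeR adjusted p = 3.1e-05). FANCE and FANCF, which sit in the core complex between its catalytic part and its substrate, gave -0.20 and -0.18 and did not pass the threshold. The substrate pair that the core ubiquitinates fell together, FANCD2 by 0.34 and FANCI by 0.37. For FANCD2 the libraries measured 29.7, 29.1 and 29.0 CPM with siNT and 22.0, 24.2 and 24.5 CPM with siMyc.

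Genes for the trimming and unwinding of DNA ends divided into a group with large changes and the MRE11 complex with small ones. DNA2, a nuclease and helicase, measured 28.2, 24.1 and 28.8 CPM with siNT and 16.9, 17.0 and 19.5 CPM with siMyc, and fell by 0.63 (SE 0.08, edgeR adjusted p = 3e-06). EXO1, the exonuclease of long-range trimming, measured 40.7, 34.8 and 40.1 CPM against 25.3, 25.3 and 27.9 CPM, and fell by 0.59. RBBP8, also called CtIP, which starts the trimming, measured 88.5, 79.3 and 91.5 CPM against 57.2, 62.0 and 65.5 CPM. Its log2 fold change was -0.52, and that of the helicase BLM was -0.48. In the complex that senses the break, MRE11 and NBN changed by -0.18 (edgeR adjusted p = 0.0442) and -0.19 (adjusted p = 0.02). The groups of both genes overlapped, and each gene was called in only 2 of the 6 fits that left out a library. RAD50, the other subunit, was at 8.07 to 9.83 CPM with siNT and 9.49 to 9.60 CPM with siMyc, with a log2 fold change of 0.04 (SE 0.09, edgeR adjusted p = 0.784). It was the only one of the 38 genes with a positive value here, and 76.9% of its exon bases are shared with a second gene model on the same strand.

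The kinases that sense damage divided in a similar way. ATR, which responds to single-stranded DNA, measured 34.3, 32.5 and 36.8 CPM with siNT and 25.0, 26.4 and 27.0 CPM with siMyc (log2 fold change -0.43, SE 0.07, edgeR adjusted p = 3.21e-05). Its target CHEK1 fell by 0.28 and CHEK2, the target of ATM, by 0.41. ATM, which responds to double-strand breaks, was at 58.3 to 59.6 CPM with siNT and 58.1 to 59.9 CPM with siMyc. Its log2 fold change was -0.02 (SE 0.05, edgeR adjusted p = 0.821). POLQ, the polymerase of an end-joining route that can replace recombination, measured 15.8, 14.4 and 16.4 CPM against 9.60, 11.9 and 11.1 CPM and fell by 0.54. The mismatch repair gene MSH6 changed by -0.15 (edgeR adjusted p = 0.0316), called in 2 of the 6 fits without a library, and PMS2 by -0.12 (adjusted p = 0.345). CHEK2 and PMS2 have near-identical copies elsewhere in the genome, so their counts are uncertain. RADX, which binds single-stranded DNA at replication forks, was at 10.7 to 13.6 CPM with siNT and 9.28 to 11.5 CPM with siMyc, a log2 fold change of -0.23 (SE 0.10, edgeR adjusted p = 0.103).

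Genes that mark the phases of cell division moved with the repair genes. Of 40 S-phase genes that are not among the 38, 37 were lower in 231:TKO+siMyc and 0 higher, with a median log2 fold change of -0.39. Of 54 G2/M genes, 50 were lower and 0 higher, with a median of -0.31. Over all genes tested, 13.9% were lower and 13.3% higher. The summed level of the S-phase list was 3540 to 3741 CPM with siNT and 2751 to 2905 CPM with siMyc, with none of its genes at 0. That of the G2/M list was 9442 to 9874 CPM and 7873 to 8302 CPM. In parental 231, with the factor described next, 39 of the S-phase genes and 48 of the G2/M genes were lower, and the summed S-phase level was 3379 to 3421 CPM with siNT and 2628 to 2756 CPM with siMyc. The part of a change in cycling in the fall of the repair genes was not tested.

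In parental 231 cells the fold changes were about as large, but only 1 gene passed the threshold. RAD54L measured 19.8, 22.2 and 21.4 CPM with siNT and 14.3, 14.1 and 14.4 CPM with siMyc, a log2 fold change of -0.57 (SE 0.10, edgeR adjusted p = 0.0495). The median over the 38 genes was -0.39, 37 values were negative, and 22 had an unadjusted p-value under 0.05. Of all 23728 genes tested, only 0.24% were higher and 0.354% were lower. DESeq2's Wald test called 13 of the 38 genes lower, and 2.66% of all genes. For 20 of the 38 genes all siMyc libraries lay below all siNT libraries, against 11.1% of all genes.

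The pair of libraries that stood apart widened the spread within the parental groups, and among the repair genes their deviations varied with exon length. In parental 231+siNT replicate 1, 28 of the 38 genes lay below their group mean, with a median deviation of -0.13 on the log2 scale. Parental 231+siMyc replicate 3 likewise had 28 genes below the mean and a median of -0.11. Across the 38 genes the deviation correlated with the log2 of exon length at r = -0.67 (Spearman's rho = -0.68) in the first and at r = -0.62 (rho = -0.65) in the second. Genes are not independent replicates, and all points of a correlation share one library, so these values are a description. In the other 4 parental siRNA libraries r was between 0.49 and 0.66, since deviations sum to zero within a group. The 6 siRNA libraries of 231:TKO gave values between -0.30 and 0.29. RAD50, with 10565 exon bases, measured 2.76 CPM in the deviating siNT library against 7.46 and 6.71 CPM, and 2.20 CPM in the deviating siMyc library against 6.93 and 6.59 CPM.

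**Figure D2:**
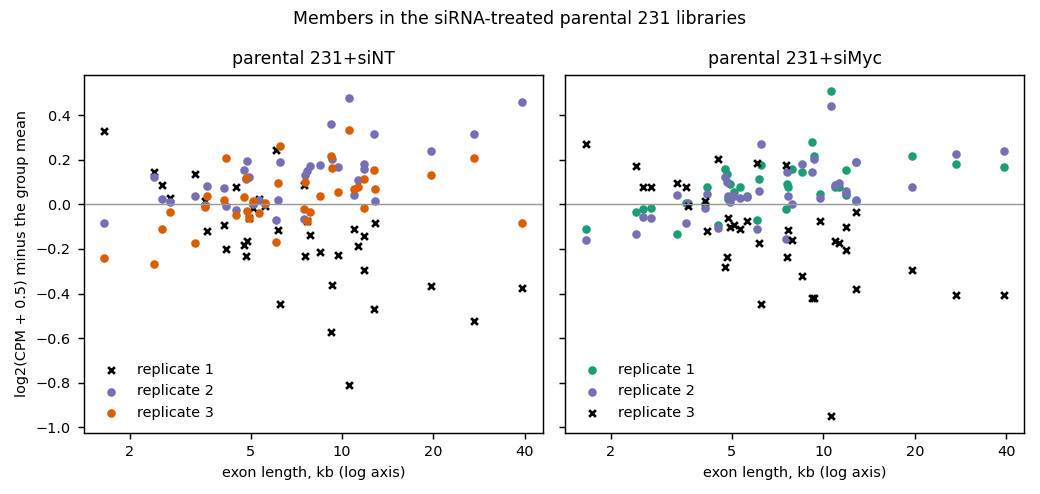
Deviation of each of the 38 genes from its group mean, as log2(CPM + 0.5), against exon length in kb on a log axis, for parental 231+siNT (left) and parental 231+siMyc (right). Crosses mark siNT replicate 1 and siMyc replicate 3, in which 28 of the 38 genes lay below the group mean and the long genes lay lowest.

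A factor for the pair was added to the fit, a setting chosen after the data had been seen. With it 31 of the 38 genes (81.6%) were lower and 0 were higher, while 13.7% of all genes were higher and 13.1% lower. The median log2 fold change stayed at -0.39. When the pair was left out, 28 of the 38 genes were lower and 0 higher, against 9.94% of all genes higher and 10.9% lower. POLQ had the largest change, at -0.68 with the factor (SE 0.09, edgeR adjusted p = 5.84e-08). Its libraries measured 11.1 and 10.0 CPM with siNT and 6.65 and 6.01 CPM with siMyc, and 5.61 and 3.91 CPM in the deviating siNT and siMyc libraries. Within either kind of library its level with siMyc was the lower one. XRCC2 followed at -0.65 and XRCC3 at -0.61, then FANCD2 at -0.58 and RAD54L at -0.57. The FANCD2 libraries measured 18.9 and 18.0 CPM against 11.5 and 11.6 CPM, and 13.4 against 10.3 CPM in the deviating pair. BRCA2 changed by -0.46 and BRCA1 by -0.33. The 7 genes not called with the factor were PALB2, RAD51D, FANCF, RAD50, ATM, PMS2 and RADX.

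The siMyc comparisons in 231:TKO and in parental 231 share no library, so their calls can be set side by side. All 29 genes lower in 231:TKO were among the 31 lower in parental 231 with the factor, which is 100% of the first list and 93.5% of the second. Since 31 of the 38 genes were called in parental 231, a large overlap was bound to occur. The overlap over all genes is not given here, so these shares are a description. BARD1 and FANCE passed in parental 231 only. The 7 genes not called in parental 231 were not called in 231:TKO either. Across the 38 genes the fold changes correlated at r = 0.73 (Spearman's rho = 0.77), as a description over genes that share their libraries.

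The difference between the responses did not pass the threshold for any of the 38 genes. In the test of this difference, the interaction in edgeR's quasi-likelihood fit of the 12 siRNA libraries, 0% of 25812 genes were called in either direction, 1039 genes had an unadjusted p-value under 0.05, and none of the 38 was among these. DESeq2's Wald test called 6 genes and 0 of the 38. With the factor for the pair 0.57% of all genes were called and 0 of the 38, of which 3 had an unadjusted p-value under 0.05. ATM gave the largest estimate, a response 0.50 higher in 231:TKO (SE 0.28 without and 0.14 with the factor, edgeR adjusted p = 1 and 0.205). Its siNT libraries in parental 231 measured 29.6, 53.2 and 36.4 CPM, so that replicate 2 lay well above the others, and its siMyc libraries 31.2, 32.8 and 20.7 CPM. FANCD2 followed at 0.28 (SE 0.16) and FANCB was lowest at -0.21 (SE 0.21). The standard errors of the 38 estimates with the factor were 0.07 to 0.16. Even the 0.50 of ATM, with a standard error of 0.14, was not called. Differences well above these standard errors could therefore go undetected.

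**Figure D3:**
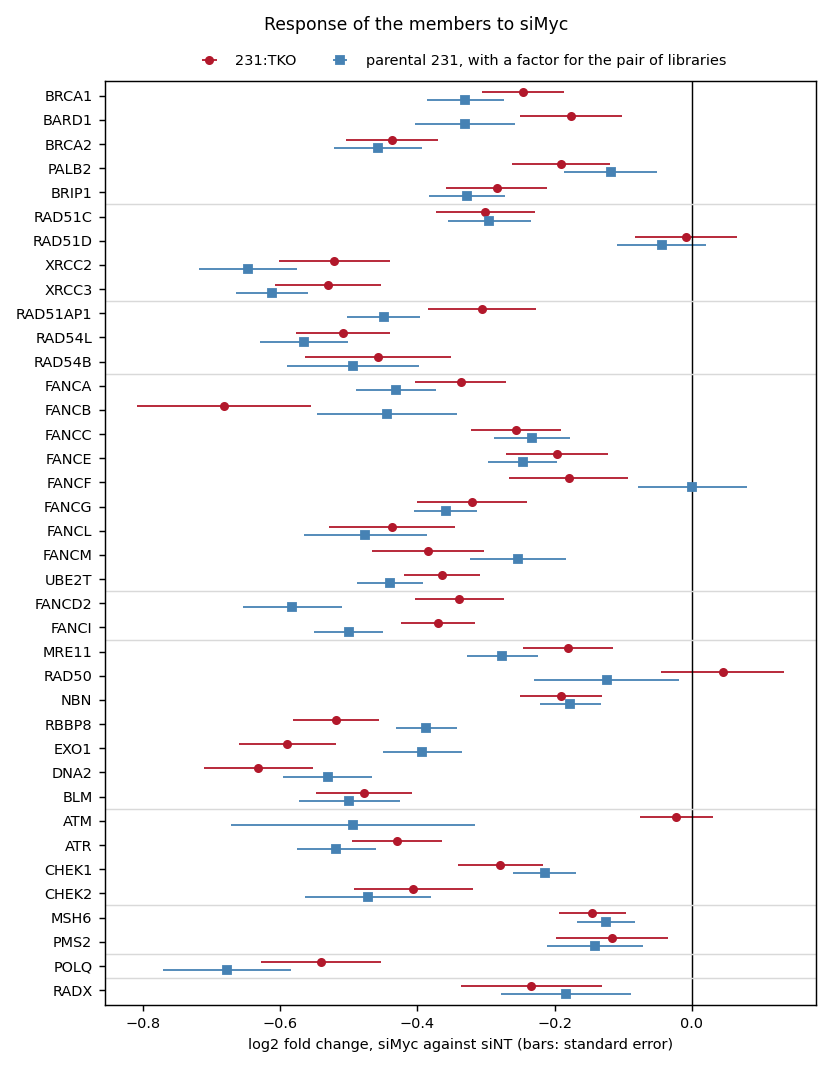
Log2 fold change of each of the 38 genes with siMyc against siNT, with its standard error, in 231:TKO (circles) and in parental 231 with a factor for the pair of libraries that stood apart (squares). Grey lines part the genes by role. Of the genes, 29 in 231:TKO and 31 in parental 231 were lower, and RAD51D lay at -0.01 and -0.04.

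Promoter sequences were read for the 38 genes, whether or not they fell with siMyc, from RefSeq on GRCh38.p14, as 250 bases before to 50 after the annotated start. A window was found for 33 of the 38 genes, and the first listed was used where a gene had several. The E-box CACGTG, the preferred letters of Myc, was present in 3 of the 33 (9.09%) and in 7.43% of the windows of 27305 genes. The 3 were BRCA2, FANCC and RAD50, of which BRCA2 and FANCC fell with siMyc. Its variant CACGCG was in 7 (21.2%, against 11.4%), and the CCAAT box in 16 (48.5%, against 35.7%). TTTCCCGC, a form of the E2F site found in genes of DNA replication, was in 4 (12.1%, against 1.66%): XRCC2, FANCC, FANCD2 and MSH6. All 4 were lower in 231:TKO+siMyc, as were 29 of all 38 genes. TTTGGCGC, another such form, was in none of the 33 and in 0.659% of all windows, TTTGAA in 5 (15.2%, against 15.4%) and TTCGAA in none (1.45% of all). Both strands were searched. These motifs do not contain each other. A match of letters is no evidence that a factor binds there.

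The windows below belong to the genes that were lower in 231:TKO+siMyc and that hold CACGTG or TTTCCCGC, and they show where these letters lie. Capitals mark CACGTG, and TTTCCCGC or its reverse complement, and each sequence reads 5′ to 3′ on the strand of the gene. BRCA2 is on the plus strand at chr13:32315258-32315557, with CACGTG from position -48 relative to the start. FANCC lies on the minus strand at chr9:95317660-95317959, with TTTCCCGC from position -46 and CACGTG from 15. XRCC2 is on the minus strand at chr7:152676092-152676391, with the reverse complement of TTTCCCGC from position 21. FANCD2 holds it from position -2, on the plus strand at chr3:10026187-10026486. MSH6 holds TTTCCCGC from position 3, on the plus strand at chr2:47782895-47783194.
BRCA2: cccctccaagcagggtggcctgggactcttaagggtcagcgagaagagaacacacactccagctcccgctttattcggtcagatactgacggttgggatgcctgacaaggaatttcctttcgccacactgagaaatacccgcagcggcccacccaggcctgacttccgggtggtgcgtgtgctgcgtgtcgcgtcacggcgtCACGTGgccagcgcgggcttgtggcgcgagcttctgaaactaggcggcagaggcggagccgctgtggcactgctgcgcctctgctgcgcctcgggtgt
FANCC: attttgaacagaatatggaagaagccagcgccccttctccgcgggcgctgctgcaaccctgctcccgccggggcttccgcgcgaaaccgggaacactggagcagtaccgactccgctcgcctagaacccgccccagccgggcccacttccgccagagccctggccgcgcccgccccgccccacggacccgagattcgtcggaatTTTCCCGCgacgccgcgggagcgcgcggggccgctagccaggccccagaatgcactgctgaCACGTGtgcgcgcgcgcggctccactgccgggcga
XRCC2: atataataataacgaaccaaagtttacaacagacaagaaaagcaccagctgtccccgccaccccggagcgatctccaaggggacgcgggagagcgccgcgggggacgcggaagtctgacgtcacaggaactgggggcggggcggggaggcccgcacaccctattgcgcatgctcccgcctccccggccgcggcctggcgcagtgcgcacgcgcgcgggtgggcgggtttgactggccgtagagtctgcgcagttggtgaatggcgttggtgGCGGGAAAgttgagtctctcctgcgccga
FANCD2: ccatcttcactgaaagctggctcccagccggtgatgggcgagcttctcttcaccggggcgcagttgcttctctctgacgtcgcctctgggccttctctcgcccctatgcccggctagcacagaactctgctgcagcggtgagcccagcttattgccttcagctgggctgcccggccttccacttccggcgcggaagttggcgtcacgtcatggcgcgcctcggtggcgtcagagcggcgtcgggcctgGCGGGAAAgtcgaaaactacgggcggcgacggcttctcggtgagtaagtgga
MSH6: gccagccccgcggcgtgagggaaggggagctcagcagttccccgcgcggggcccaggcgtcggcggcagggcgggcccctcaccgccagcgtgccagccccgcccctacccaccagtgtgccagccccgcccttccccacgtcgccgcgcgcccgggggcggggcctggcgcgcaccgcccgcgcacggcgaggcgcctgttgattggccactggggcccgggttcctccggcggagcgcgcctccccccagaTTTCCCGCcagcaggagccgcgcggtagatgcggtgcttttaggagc

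Without siRNA, deletion of TXNIP was accompanied by small differences in few of these genes. Of the 37 genes other than RADX, 3 (8.11%) were higher and 0 lower in 231:TKO than in parental 231 (edgeR's quasi-likelihood test over 19965 genes, n = 2 per group), while 5.43% of all genes were higher and 4.18% lower. The 3 were CHEK1, RAD51C and ATM. CHEK1, the checkpoint kinase below ATR, measured 105 and 105 CPM in parental 231 and 156 and 150 CPM in 231:TKO, a log2 fold change of 0.54 (SE 0.06, edgeR adjusted p = 0.0119). RAD51C measured 14.6 and 15.2 CPM against 24.6 and 20.9 CPM (log2 fold change 0.61, SE 0.12, edgeR adjusted p = 0.043). ATM measured 90.5 and 86.0 CPM against 110 and 112 CPM (log2 fold change 0.33, SE 0.06, edgeR adjusted p = 0.0373). In these 3 genes both 231:TKO libraries lay above both parental libraries, as in 12 of the 37 genes, while in 6 both lay below. Over all genes tested these shares were 29.2% and 28.6%.

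RBBP8 and BRCA2 lay just outside the threshold. RBBP8 measured 106 and 109 CPM in parental 231 and 139 and 173 CPM in 231:TKO (log2 fold change 0.53, edgeR adjusted p = 0.0528), and BRCA2 54.2 and 52.3 CPM against 65.0 and 78.1 CPM (0.43, edgeR adjusted p = 0.0731). DESeq2's Wald test called both. When either parental library was left out, none of the 37 genes was called and none of all genes (2140 and 2166 of them at an unadjusted p-value under 0.05). The median of the 37 genes was 0.05.

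The replicates of 231:TKO differed from each other more than those of parental 231. MSH6, the mismatch recognition subunit, measured 293 and 286 CPM in parental 231, and 200 and 359 CPM in 231:TKO replicates 1 and 2. FANCL, the ubiquitin ligase subunit of the Fanconi core, measured 22.4 and 22.0 CPM against 12.6 and 21.8 CPM, and FANCE 48.2 and 46.6 CPM against 38.3 and 64.7 CPM. In MSH6 and FANCE the replicates lay on opposite sides of parental 231. Leaving out a 231:TKO library leaves 1 sample in that group, which is assumed to vary like the closely matched parental libraries, and calls rise across all genes. Without 231:TKO replicate 1, 14 of the 37 genes were higher and 2 lower, against 18.5% and 19% of all genes. Without replicate 2, 9 were higher and 8 lower, near the 18.1% and 17.9% of all genes.

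Some of these differences followed the neighbors of the genes on the chromosome. MSH6 and FANCL lie in the same window of 20 Mb on chromosome 2 (40 to 60 Mb, GRCh38). The other expressed genes there, 53 in number, differed from parental 231 by a median of -0.57 in 231:TKO replicate 1 around MSH6, and by 0.04 in replicate 2. MSH6 itself differed by -0.53 and 0.31, and FANCL by -0.79 and -0.03. CHEK1 and ATM lie in adjoining windows of chromosome 11, whose other genes had medians of 0.40 and 0.37 around CHEK1 and of 0.37 and 0.30 around ATM. CHEK1 differed by 0.56 and 0.51, and ATM by 0.32 and 0.34. RBBP8, on chromosome 18, differed by 0.37 and 0.68 in a window with medians of 0.31 and 0.37. RAD51C differed by 0.70 and 0.47 in a window at -0.01 and -0.06. With the shifts of the windows taken out, RAD51C was the only one of the 37 genes called (log2 fold change 0.64, edgeR adjusted p = 0.0236), and the value of ATM was -0.04. Across the 37 genes, gene and window differences correlated at r = 0.70 in replicate 1 and 0.53 in replicate 2, as a description over genes of one library. What shifted the windows was not tested.

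**Figure D4:**
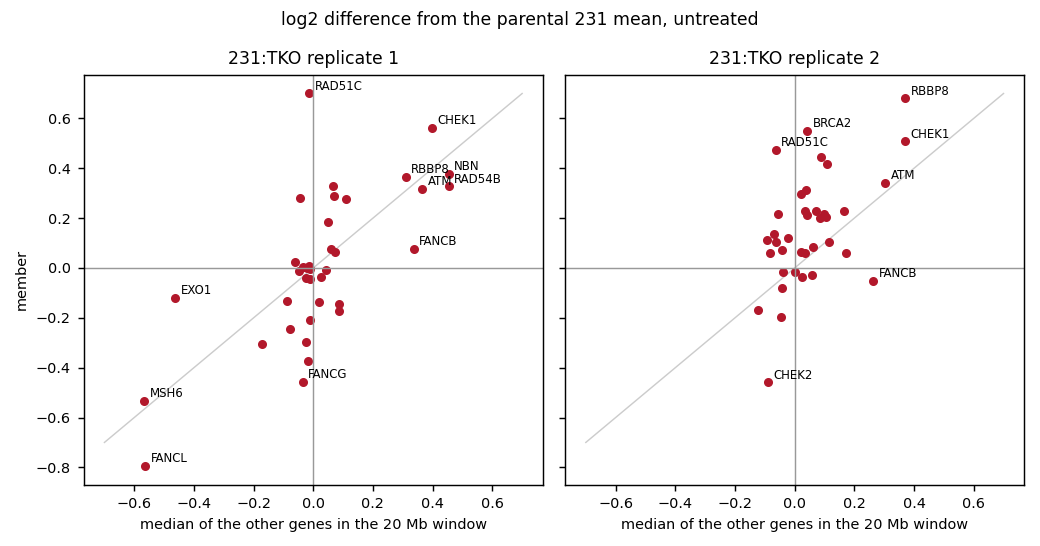
Log2 difference of each of the 37 genes other than RADX from the mean of parental 231 (vertical) against the median difference of the other genes in its 20 Mb window (horizontal), for the untreated 231:TKO replicates; the grey diagonal marks equal values. MSH6 and FANCL lie at the lower left in replicate 1 alone, whereas CHEK1, ATM and RBBP8 lie to the upper right in both.

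RADX, on chromosome X at 106611930 to 106679439, was counted 8 and 12 times in the parental libraries and 133 and 255 times in 231:TKO. In CPM of the unscaled totals these were 0.422 (95% confidence interval 0.182 to 0.832) and 0.623 (0.322 to 1.09) against 4.44 (3.72 to 5.27) and 8.84 (7.79 to 10.0). These exact (Clopper-Pearson) intervals cover counting error only and leave out the spread between samples. Those of the 231:TKO libraries did not overlap each other. PCR copies of one molecule cannot be recognised in these reads, so the intervals may also be too narrow for counting error. The log2 fold change was 3.69. In the siNT libraries it measured 6.22, 8.11 and 6.86 CPM in parental 231 and 10.7, 10.7 and 13.6 CPM in 231:TKO. There the difference was 0.73 (SE 0.14, edgeR adjusted p = 0.00181), without overlap. The genes were chosen with earlier results of these data known, so this test is no independent support for the rise. Per kilobase of exon RADX had the lowest median of the 38 genes over the untreated libraries, at 0.529 CPM per kb. That median pools parental 231 and 231:TKO, and the libraries ranged from 0.086 to 1.85 CPM per kb. In the siRNA libraries of parental 231 RADX had rank 32.

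With siNT, more of the repair genes differed between the cells. Of the 38 genes, 18 (47.4%) were higher in 231:TKO+siNT than in parental 231+siNT and 3 were lower (edgeR's quasi-likelihood test over 23310 genes, n = 3 per group), while 16.1% of all genes were higher and 20.7% lower. Their median log2 fold change was 0.30, and that of all genes -0.03. The 18 genes include RADX, which was listed for its rise in untreated 231:TKO. In this comparison the deletion, the gene annotation and possibly the sequencing run differ together and cannot be told apart. Parental 231+siNT replicate 1, one of the libraries that stood apart, enters here as well. Without it 23 of the 38 genes were higher and 5 lower, against 22.4% of all genes higher and 25.8% lower, and the median was 0.30.

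FANCD2 and FANCI were higher by 0.81 (SE 0.13, edgeR adjusted p = 0.000474) and 0.66 (SE 0.10, edgeR adjusted p = 0.000364). FANCD2 measured 29.7, 29.1 and 29.0 CPM in 231:TKO+siNT and 13.4, 18.9 and 18.0 CPM in parental 231+siNT, and FANCI 96.3, 89.2 and 95.1 CPM against 53.5, 66.1 and 58.5 CPM. In both genes the groups did not overlap. The exons of FANCD2 span 8380 bases in the annotation used for 231:TKO and 11855 in that used for parental 231, whereas those of FANCI did not change. POLQ was higher by 0.80 and FANCB by 0.70, and without parental 231+siNT replicate 1 by 0.58 and 0.66. Around BRCA1, BARD1 was higher by 0.66, BRCA2 by 0.65, BRCA1 by 0.45 and PALB2 by 0.45. Without the same replicate BARD1 gave 0.57, BRCA1 0.31 and PALB2 0.38. BRCA2 measured 34.3, 32.2 and 34.4 CPM against 15, 26.2 and 23.4 CPM, the lowest value being that of the deviating library, and without that library its difference was 0.47. XRCC2, BLM, ATM, CHEK2, RAD54L, RAD54B, FANCA, DNA2 and NBN were also higher, by 0.33 to 0.57. The windows of BRCA2, FANCB, RAD54B, NBN, FANCI and BLM were themselves higher, with medians of 0.18 to 0.34 over the 231:TKO+siNT libraries. RAD54B and NBN share a window, as do FANCI and BLM. FANCI was higher by 0.45 and BLM by 0.33 with the window shifts taken out. With the window shifts taken out 16 genes were higher, with BRCA2, RAD54B, NBN and DNA2 no longer called and FANCL and EXO1 called in addition. ATM, at 58.3 to 59.6 CPM against 29.6, 53.2 and 36.4 CPM, was called in only 1 of the 6 fits that left out a library, and without parental 231+siNT replicate 1 it gave 0.42 (edgeR adjusted p = 0.109).

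FANCG, FANCE and XRCC3 were lower. FANCG, a core subunit, measured 14.4, 13.4 and 13.3 CPM in 231:TKO+siNT and 68.3, 67.5 and 67.2 CPM in parental 231+siNT, a log2 fold change of -2.30 (SE 0.09, edgeR adjusted p = 1.47e-08). In the earlier of 2 Ensembl releases, used for 231:TKO and for the untreated libraries, 63.9% of the exon bases of FANCG are shared with VCP on the same strand, so reads there match both genes. In the later release, used for the siRNA libraries of parental 231, 5.17% are shared with any gene. The part of the annotation in this difference was not tested. Without siRNA, where both kinds of cell were counted with the earlier release, FANCG was not called. It measured 14.1 and 12.2 CPM in untreated parental 231 and 9.41 and 14.2 CPM in untreated 231:TKO. FANCE measured 25.3, 26.1 and 23.2 CPM against 42.6, 42.1 and 40.8 CPM (log2 fold change -0.74), in a window of chromosome 6 whose medians were -0.41 to -0.37. XRCC3 changed by -0.35 in a window at -0.38 to -0.31, and its value was 0.01 with the window shifts taken out. Of the 30 genes whose exon length is the same in both releases, 13 were higher and 3 lower, with a median of 0.25. Over the 22147 genes tested of equal length, 15.8% were higher and 20.4% lower, with a median of -0.03.

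The untreated and siNT comparisons share no library. Of the 37 genes without RADX, 26 had the same sign in both, with r = 0.14 (Spearman's rho = 0.06) across genes, as a description. CHEK1 gave 0.54 untreated and 0.20 with siNT (edgeR adjusted p = 0.0908), ATM 0.33 and 0.57, and RAD51C 0.61 and 0.08 (adjusted p = 0.627). FANCD2 gave 0.03 (edgeR adjusted p = 0.821) and 0.81, and FANCI 0.04 (adjusted p = 0.769) and 0.66. The difference between these comparisons was not tested.

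**Figure D5:**
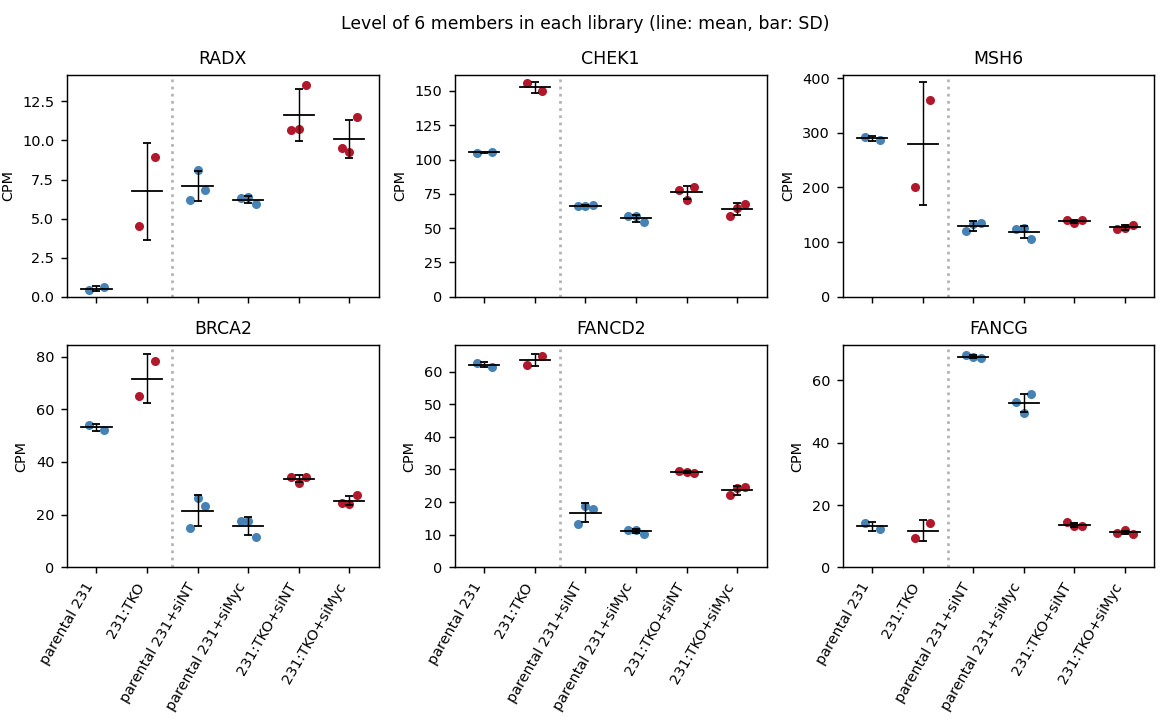
CPM of 6 genes in each library (points), with the mean (line) and SD (bar) of each group, parental 231 in blue and 231:TKO in red; the dotted line parts the untreated libraries from the siRNA libraries. With siNT, FANCG lies at 67.2 to 68.3 CPM in parental 231 and at 13.3 to 14.4 CPM in 231:TKO, and FANCD2 overlaps between the cells without siRNA and does not with siNT.

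Other DNA repair genes, 153 in 8 lists, were read from the same fits. With siMyc in 231:TKO, 63 of the 153 tested were lower and 12 higher (medians: -0.12 for these genes and -0.33 for the 38). Over all genes tested, 13.9% were lower and 13.3% higher, and these shares also apply to the counts per list below. Among 20 base excision repair genes 11 were lower and 3 higher, and among 20 further checkpoint genes 11 were lower and 3 higher. CDC25A, the phosphatase that CHEK1 restrains, fell by 0.69, TIPIN, which protects stalled forks, by 0.68, and SHLD3, of the shieldin complex that blocks the trimming of DNA ends, by 0.72 (edgeR adjusted p = 2.85e-08, 1.16e-06 and 0.00141). Of the genes that rose, NEIL1, a DNA glycosylase, changed by 0.46, and the nucleotide excision repair genes ERCC6 and XPC by 0.44 and 0.42. In the other lists 17 of 45 further recombination genes were lower and 2 higher, 8 of 19 end-joining genes lower and 1 higher, and 5 of 24 nucleotide excision repair genes lower and 3 higher. Of 8 mismatch repair genes 5 were lower, of 11 translesion synthesis genes 4 and of 6 regulators of recombination at forks 2, with 0 higher in these 3 lists.

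In parental 231 with the factor for the pair, 70 of 152 such genes were lower and 10 higher with siMyc, with a median of -0.13. Over all genes tested, 13.1% were lower and 13.7% higher. SHPRH, MUTYH and RTEL1 had the largest negative values, at -0.66, -0.63 and -0.56, and PARP3, CETN2 and ERCC6 the largest positive ones, at 0.39, 0.31 and 0.29. Without siRNA, 14 of 152 (9.21%) were higher and 4 (2.63%) lower in 231:TKO, near the shares of all genes (5.43% and 4.18%). RIF1, which limits the trimming of DNA ends, SEM1, a partner of BRCA2, and POLI, a translesion polymerase, were higher by 0.81, 0.81 and 0.67. Log2 fold changes of -0.49 and -0.42 were found for TONSL, which acts at stalled forks, and RPA1, which coats single-stranded DNA. With siNT, 23 (15.1%) were higher and 36 (23.7%) lower, near the shares of all genes (16.1% and 20.7%), with REV3L (1.58), MMS22L (1.31) and SHPRH (1.28) highest and SHLD1 (-1.53), CENPS (-1.30) and CETN2 (-1.24) lowest.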

How the data were processed

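RNA from 16 libraries of MDA-MB-231 cells was analysed. The authors aligned the reads with STAR and counted them per gene with featureCounts (1.6.3 in the file headers), and they deposited raw counts on GRCh38 with Ensembl release 102, or release 104 for the siRNA libraries of parental 231. The library kit was stranded. Single reads were counted in the untreated libraries and read pairs in the siRNA libraries. Symbols were found for 96.7% of the identifiers.

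Genes with more than 5 counts summed over a comparison were tested with edgeR 4.0.16 (TMM scaling, robust quasi-likelihood F-test) in R 4.3.3, adjusted after Benjamini and Hochberg over all genes tested, with a threshold of 0.05. No filter was set on single libraries. The scripts were tested on simulated data. CPM were scaled by TMM, and deviations used log2(CPM + 0.5). Window shifts are medians over the other genes above 1 CPM in 20 Mb. Alternatives were DESeq2 1.42.0, other scalings and filters, a replicate block, a surrogate variable (sva 3.50.0), stricter thresholds and each library left out. Total counts of 18953668 to 59799444 set the precision. The labels do not say that replicates came from separate cultures, so p-values measure the spread between these samples, which may be technical.

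All 38 genes are accounted for in the text by role, and the other repair genes named are the 3 with the largest change in each direction among those called. A result on an item withheld here is not reported. The members and gene lists were chosen with earlier results of these data known. Promoter windows are from RefSeq (GRCh38.p14).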

Additional observations from a re-analysis of the deposited data

Results flagged for a closer look

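In 4 genes the difference between 231:TKO and parental 231 had opposite signs without siRNA and with siNT, and in each comparison the groups did not overlap. These are 10.8% of the 37 genes, and the same held for 12.8% of 19074 genes tested in both comparisons. RAD51D had a log2 fold change of -0.29 without siRNA and 0.21 with siNT. FANCA had -0.21 and 0.38, FANCL -0.37 and 0.23, and CHEK2 -0.23 and 0.57. Of these 8 values, only those of FANCA and CHEK2 with siNT were called by edgeR. Without siRNA, the value of CHEK2 was -0.50 without 231:TKO replicate 1 and -0.018 without replicate 2, and that of FANCL -0.042 and -0.82, so each rests on 1 library. With window shifts taken out, FANCL was -0.15. The difference between the comparisons was not tested, and they also differ in how the reads were counted.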

How the results depend on the processing

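Shares in brackets are those of all genes tested, in the same direction. Without siRNA, the count of genes higher in 231:TKO was 3 (5.43%). It was 5 with DESeq2 (6.3%) and 6 without a filter on low counts (5.22%). With window shifts taken out it was 1 (4.35%), and at an adjusted p of at most 0.01 it was 0 (0.581%). Leaving out 1 library gave 0 to 14 higher and 0 to 8 lower, while the share of all genes called went from 0% without a parental library to 18.1% or 18.5% higher without a 231:TKO library. With siMyc in 231:TKO the count of 29 lower genes became 12 in 1 fit of the 12 siRNA libraries (4.38% of all genes lower, against 13.9%). It was 8 at a log2 fold change of at least 0.5 (3.63% of all genes), and 26 to 32 with 1 library left out (11.1% to 16.5%). In parental 231 the count of 1 lower gene (0.354%) became 13 with DESeq2 (2.66%) and 3 without a filter (0.672%). DESeq2's size factors in edgeR gave 0 (0.236%). The count was 15 in 1 fit of the 12 libraries (3.65%) and 31 with a surrogate variable (12.8%). With the factor for the pair it was 31 (13.1%), and without the pair 28 (10.9%). It was 0 at the stricter adjusted p (0%) and 0 to 2 with 1 library left out (0% to 0.436%). With siNT the 18 higher genes (16.1%) became 10 at the stricter adjusted p (10.6%) and 11 at the fold minimum (12%). With 1 library left out there were 11 (12%, without 231:TKO+siNT replicate 3) to 23 (22.4%, without parental 231+siNT replicate 1). The 3 lower genes (20.7%) became 5 with a surrogate variable (26.9%) and 2 to 5 with 1 library left out (15.4% to 25.8%). The cause of these changes was not tested.

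With the replicate number as a block, 1 gene was higher without siRNA (2.62% of all genes). With siMyc 33 genes were lower in 231:TKO (15.4% of all genes) and 0 in parental 231 (0%). Deviations of libraries with the same number correlated at -0.21, 0.22 and 0.37 in the siMyc comparison of 231:TKO and at -0.86, 0.70 and -0.79 in that of parental 231, so the libraries share only a number and no pairing is assumed.

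Single genes changed sign in 4 cases. With window shifts taken out, ATM without siRNA was -0.035 and XRCC3 with siNT 0.014. MSH6 without siRNA was 0.30 without 231:TKO replicate 1 and -0.54 without replicate 2, and FANCE was 0.43 and -0.31. The factor for the pair and the fit without the pair were chosen after seeing the data.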

Other observations

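RADX lies within 1 Mb of 7 other genes tested in the untreated cells. On one side of it the log2 fold change of RNF128 was 5.19 (edgeR adjusted p = 0.0237), MORC4 1.09 (adjusted p = 0.0051), CLDN2 1.95 (adjusted p = 0.0743) and TBC1D8B 1.13 (adjusted p = 0.058). RBM41, NUP62CL and PRPS1, further along chromosome X, had -0.01, -0.45 and -0.06 (edgeR adjusted p = 0.941, 0.595 and 0.592). TXNIP rose with siMyc in 231:TKO by 0.40 (edgeR adjusted p = 0.00247) and in parental 231 by 0.56 (adjusted p = 0.0458).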
